A study of Gallus gallus with 8 samples.

Results

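The miRNA content of the trachea of unexposed chickens (Gallus gallus) was described from 3 of the 6 small RNA samples, and of the 8 samples in all, of a study of hydrogen sulfide (H2S). The members were chosen by label: they are the samples named for chamber C, which received no H2S, and they were taken at 42 days of age from tissue labelled trachea. The labels give no breed, genotype or sex, and do not say whether a sample is 1 bird or a pool, so the spread between the 3 samples may be partly technical. Total counts were 18073175, 15288018 and 15239214 in control libraries 1 to 3, over 994 mature miRNAs. Since these libraries form a single group, the values are a description and no test between conditions was made.

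A miRNA is a short RNA that guides Argonaute proteins to messenger RNAs and lowers their output. The precursor folds into a hairpin from which Dicer cuts a duplex. One strand comes from the 5′ side (the 5p arm) and one from the 3′ side (3p), and usually one of them is kept. Bases 2 to 8, called the seed, largely decide which messengers are bound, so miRNAs with a shared seed form a family. The trachea joins hyaline cartilage rings, a ciliated and glandular epithelium, fibroblasts, vessels, immune cells and adjacent skeletal muscle, and each of these has miRNAs it is known for.

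The sequences of the miRNAs that carry the profile are shown first, with the seed in capitals. They are the deposited table's mature sequences, 5′ to 3′, with T for U. The 6 most abundant miRNAs have 6 different seeds, and the let-7 members and the miR-1 family (miR-1a, miR-1b and miR-206) each share one.
miR-148a-3p: tCAGTGCActacagaactttgt
miR-140-3p: cCACAGGGtagaaccacggac
miR-26a-5p: tTCAAGTAatccaggataggc
miR-21-5p: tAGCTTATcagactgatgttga
miR-199-3p: tACAGTAGtctgcacattgg
miR-1a-3p: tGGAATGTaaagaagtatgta
miR-1b-3p: tGGAATGTtaagaagtatgta
miR-206: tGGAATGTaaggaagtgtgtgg
let-7i: tGAGGTAGtagtttgtgctgt
let-7a-5p: tGAGGTAGtaggttgtatagtt
let-7g-5p: tGAGGTAGtagtttgtacagt
let-7f-5p: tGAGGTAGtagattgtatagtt

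Control library 2 stood apart in the rank order of levels, though not on every measure. Across the 167 miRNAs with a mean of at least 10 counts per 1000000 counts of the library total (CPM), Spearman's rho of CPM was 0.935 between libraries 1 and 2, 0.943 between libraries 2 and 3 and 0.987 between libraries 1 and 3. The median absolute log2 difference was 0.43 between libraries 1 and 2 and 0.36 for both other pairs, so by this measure library 2 was as close to library 3 as library 1 was. These values run across miRNAs, which are not independent replicates. No 2 libraries agreed within sampling noise, since the chi-square statistic of each pair exceeded its degrees of freedom at least 1799-fold.

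miR-148a-3p and miR-140-3p, the miRNAs set as markers for the tissue label, were at the top of the profile. They were named with earlier results of these data known, so this is no independent check of the label. miR-148a-3p, a miRNA found in many tissues, took 27.5%, 40.3% and 37.9% of the counts of control libraries 1 to 3. It ranked first in all 3, with a mean of 352269 ± 67741 CPM (SD, n = 3). The exact (Clopper-Pearson) 95% interval of its share was 27.51% to 27.55% in library 1 and 40.26% to 40.30% in library 2, so counting error was far smaller than the difference between these libraries. Such intervals cover counting error only, because sequencing reads without molecular identifiers are not independent molecules.

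miR-140-3p, which is best known from cartilage, where its gene is driven with the cartilage programme, was at 98434, 129238 and 117556 CPM. It ranked second in libraries 2 and 3 and 3rd in library 1, with a mean of 115076 ± 15551 CPM. Its level thus agreed within 1.31-fold across the 3 libraries. The other cartilage miRNAs were less even: miR-140-5p, miR-455-5p and miR-455-3p differed 2.07-fold, 2.18-fold and 2.06-fold. When the skeletal muscle miRNAs were left out of the total, the share of miR-140-3p was 11.6%, 13.2% and 13.2%. That of miR-148a-3p was then 32.4%, 41.2% and 42.6%.

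miR-1a-3p, a miRNA of striated muscle, came next on average. It was at 136185, 19619 and 99007 CPM, which placed it at rank 2, 9 and 3. Library 2 was low, and the highest value was 6.94 times the lowest. Its mean of 84937 CPM became 117596 CPM without library 2, which placed it second, above miR-140-3p at 107995 CPM. Its CV (the SD as a percentage of the mean) was 70.1% with library 2 and 22.4% without it. In libraries 1 and 2 miR-1a-3p stood on opposite sides of miR-26a-5p, miR-21-5p and miR-199-3p in the order of abundance.

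The next 3 places were close together. miR-26a-5p, a broadly expressed miRNA, averaged 46972 ± 5060 CPM. miR-21-5p, known for its rise in inflammation and wound repair, averaged 45041 ± 10467 CPM, and miR-199-3p, a miRNA of mesenchymal cells, 44310 ± 7474 CPM. Their order differed between libraries, and their means lay within their SDs. let-7i at 22654 ± 1168 CPM and let-7a-5p at 22483 ± 4912 CPM likewise could not be ordered.

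Places 9 to 15 were held by let-7g-5p, miR-99a-5p, miR-200b-3p, let-7f-5p, miR-30d, miR-27b-3p and miR-199-5p, at means of 17120 to 10791 CPM. Among the 14 neighbouring pairs in the list of 15, 4 kept the same order in all 3 libraries: miR-148a-3p over miR-140-3p, miR-199-3p over let-7i, let-7a-5p over let-7g-5p, and miR-200b-3p over let-7f-5p. The others changed places in at least 1 library. miR-27b-3p had the widest spread of these 7, at 14970, 6720 and 11138 CPM, and library 2 was again low.

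**Figure D1:**
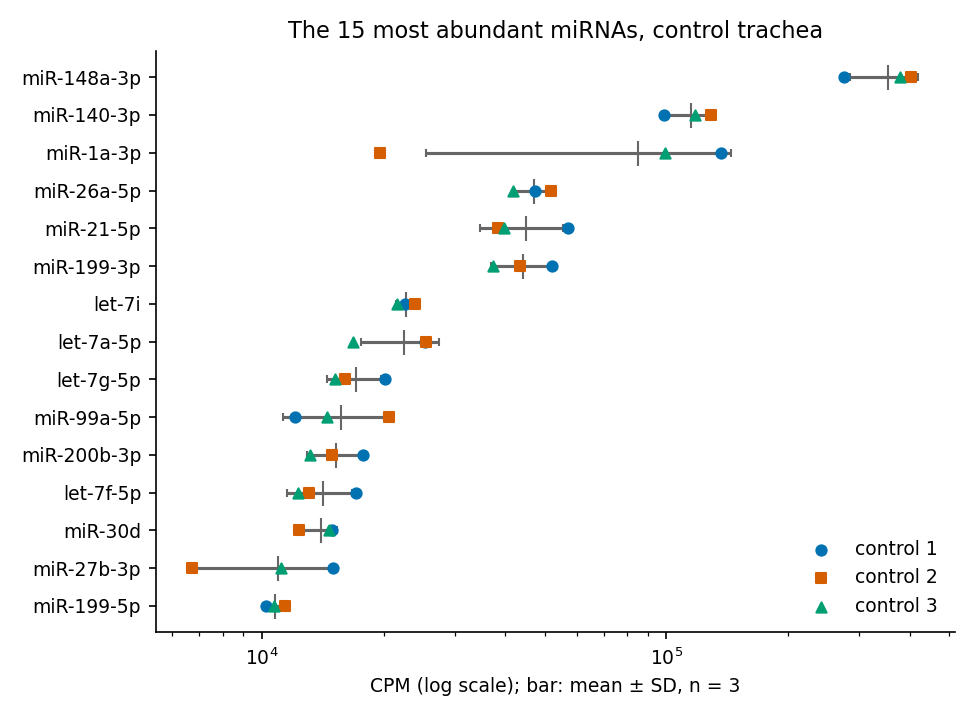
CPM on a log axis of the 15 most abundant miRNAs in each of the 3 control libraries (coloured marks), with the mean and SD (bars, n = 3). miR-148a-3p lies above all others in every library, and miR-1a-3p spans 19619 to 136185 CPM.

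The profile was concentrated in few miRNAs. On the mean of the libraries' shares, 3 miRNAs held 50% of the counts, 24 held 90% and 66 held 99%. The top 10 held 75.2%, 77.1% and 78.2% of the counts of libraries 1 to 3. The effective number of miRNAs, which is the exponential of Shannon's entropy and counts how many equally abundant miRNAs would give the same diversity, was 18.8, 14.1 and 14.4.

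Most of the listed miRNAs were rare or undetected. At least 1 count was found in all 3 libraries for 682 of the 994, in 2 libraries for 193, in 1 library for 94, and in none for 25. A count of 0 allows up to 0.166, 0.196 and 0.197 CPM in libraries 1 to 3 (3 counts of the total). A mean of at least 1000 CPM was reached by 52 miRNAs, and 673 lay under 1 CPM. No miRNA with a mean above 0.869 CPM was missing from a library.

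**Figure D2:**
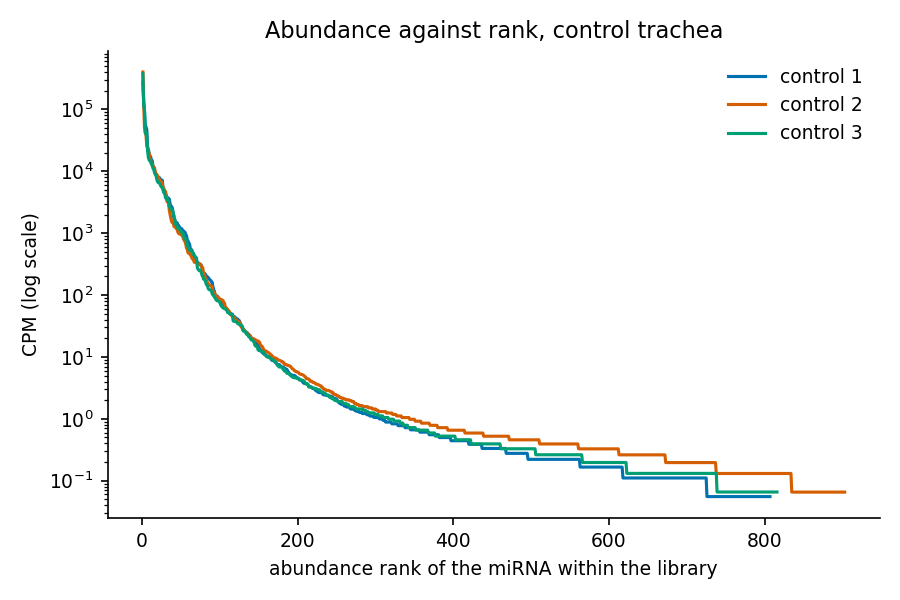
CPM on a log axis against abundance rank within each library, one line per control library, for miRNAs with at least 1 count. The 3 lines lie close together over the abundant miRNAs and end in steps of single counts, with 682 miRNAs detected in all 3 libraries.

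Grouped by seed, the 994 miRNAs fell into 861 families, of which 762 had a single member. The 5 most abundant families held 70.0% of the counts and 14 held 90%. The seed of miR-148a-3p (CAGTGCA) and that of miR-140-3p (CACAGGG) were each carried by that miRNA alone, so those families had the shares given above. The let-7 seed (GAGGTAG) followed, at 10.9%, 10.4% and 8.29% in libraries 1 to 3, spread over 9 members, of which let-7i supplied 22.9%. The miR-1 seed (GGAATGT) followed at 13.9%, 2.01% and 10.1%, and miR-1a-3p made up 97.8% of it. It was above the let-7 seed in libraries 1 and 3, and without library 2 its mean was 12.02%, above the 10.8% of the miR-140-3p seed and the 9.61% of the let-7 seed. The seed of miR-26a-5p (TCAAGTA) had a mean of 4.70% ± 0.51 (SD, n = 3), close to the 4.50% of miR-21-5p and the 4.43% of miR-199-3p, and was below both without library 2.

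Abundant miRNAs, of at least 100 CPM, began with T (U in RNA) more often than those at lower levels. T is a base that Argonaute proteins are known to hold well at the 5′ end. Among the 94 miRNAs with a mean of at least 100 CPM, 58 began with T (61.7%) and 2 with G. Among the 673 miRNAs under 1 CPM, 263 began with T (39.1%) and 110 with G. In the classes between, 39.7% began with T at 10 to 100 CPM and 30.5% at 1 to 10 CPM. Below 100 CPM the share therefore did not rise steadily with level. Weighted by level, 80.5% of all counts came from miRNAs beginning with T. miRNAs of 21 to 23 bases supplied 94.7% of the counts and made up 81.4% of the listed names. The median GC content was 45.5% in the abundant class and 52.4% in the class under 1 CPM. These are properties of the annotated sequences, not of the reads.

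The arms of a hairpin were compared within a library, where depth cancels. Any difference in how well the 2 sequences were captured does not cancel and was not measured. The table names 282 pairs that differ only in -5p and -3p, and 135 of them had at least 20 counts over both arms in every library. In 64 pairs the 5p arm was at least 2-fold above the 3p arm in all 3 libraries (47.4% of the measured pairs), and in 51 pairs the 3p arm was at least 2-fold above the 5p arm (37.8%). The remaining 20 met neither condition. The calls of miR-458a toward 3p and miR-458b toward 5p rest on reverse-complement sequences with near-equal counts. The levels of these sequences are uncertain, as described below. The imbalance was large, with a median of 20.03-fold between the arms. It was at least 10-fold in every library for 45 pairs toward 5p and 30 toward 3p. In 20 of the 135 pairs an arm had 0 counts in at least 1 library, and was set to a floor of 3 counts, so their ratios are bounds.

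The most abundant hairpins kept 1 arm almost alone. miR-148a had 400, 560 and 565 counts of its 5p arm against 4975432, 6157968 and 5771321 of its 3p arm, a log2 ratio of 5p to 3p of -13.45 ± 0.14 (SD, n = 3). miR-26a and miR-21 leaned the other way, with log2 ratios of 12.32 ± 0.25 and 12.24 ± 0.20. Pooled over the libraries, the kept arm exceeded the other 11085-fold in miR-148a, 5077-fold in miR-26a and 4962-fold in miR-21. In the epithelial miR-200b the 3p arm was higher, with a log2 ratio of -7.20 ± 0.18.

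miR-140 and miR-199 were different, because both arms were abundant. miR-140-5p had 68677, 120387 and 94793 counts against 1779012, 1975796 and 1791464 of miR-140-3p, a log2 ratio of -4.32 ± 0.34. The minor arm, which is the better studied one in mammalian cartilage, was therefore still the 26th most abundant miRNA. miR-199-5p and miR-199-3p had a log2 ratio of -2.03 ± 0.29, which left both among the 15 most abundant. Both hairpins leaned most to 3p in control library 1. The 2 arms of miR-140 carry different seeds:
miR-140-5p: aGTGGTTTtaccctatggtag
miR-140-3p: cCACAGGGtagaaccacggac

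At the ends of the range the minor arm was nearly missing. let-7g-3p had 2, 10 and 5 counts against 363542, 245322 and 231600 of let-7g-5p, a pooled ratio of 49439 (95% exact interval 30878 to 84869). miR-100 had a pooled 5p to 3p ratio of 26134 (16921 to 42784), from 20 counts of the minor arm. On the other side, miR-1b and miR-133c had 5 and 3 pooled counts of the 5p arm against 53553 and 31984 of the 3p arm, for 3p to 5p ratios of 10711 (4589 to 32988) and 10661 (3648 to 51701). These intervals cover the counting error of the pooled counts only, not the spread between libraries. The log2 ratio of let-7g was 17.47, 14.58 and 15.50 in libraries 1 to 3. At such low counts of one arm, the direction of the ratio is clear but its size is imprecise. let-7a-5p and let-7a-3p had a log2 ratio of 9.18 ± 0.22, but the table lists 3 precursors for the 5p arm and 1 for the 3p arm, so this pair is not 1 hairpin. The same holds for 2 other measured pairs.

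A few hairpins gave nearly equal arms. miR-455, made with the cartilage programme from a collagen gene in mammals, had 26757, 49420 and 36915 counts of its 5p arm and 26608, 46363 and 29387 of its 3p arm, a log2 ratio of 0.14 ± 0.17. miR-30e was at -0.14 ± 0.33. miR-142, a miRNA of blood cells, was at -0.13 ± 0.47 and miR-130a, from 267 and 197 pooled counts, at 0.33 ± 0.66. The sign of the log2 ratio differed between libraries in 7 of the 135 pairs, among them miR-30e, miR-142 and miR-130a. miR-106 leaned to 5p in each library, at 0.88 ± 0.09, under the 2-fold mark.

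The kept arm began with T in 75 of the 135 pairs (55.6%), against 25 for the minor arm (18.5%). The minor arm began with C in 47 pairs and the kept arm in 21. Over all 135 pairs the SD of the log2 arm ratio had a median of 0.52, above the median of 0.34 for the log2 CPM of the kept arm, and it was the smaller of both in 55 pairs. In the pairs with at least 20 counts of each arm in every library, also 55 in number, the order was the other way, with medians of 0.24 for the arm ratio and 0.32 for the level, and the arm ratio varied less in 35. Among these 55 the SD was smallest in miR-34c, at 0.018.

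**Figure D3:**
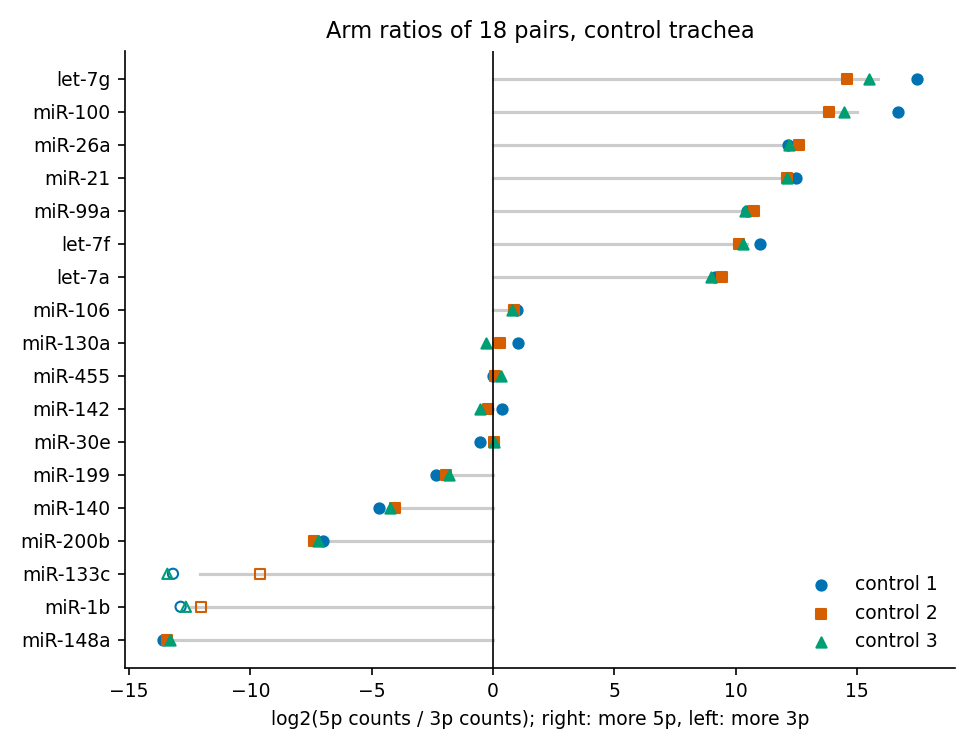
log2 ratio of 5p to 3p counts in each control library for 18 pairs: the 10 most abundant, the 3 most extreme on each side and the 5 nearest to balance, with repeats shown once. Grey lines run from 0 to the mean, and open marks are pairs with 0 counts of an arm in a library; miR-148a lies at -13.45, miR-455 at 0.14 and miR-26a at 12.32 on average.

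Tissue-typical miRNAs were summed over 15 lists drawn up by stem, so that every arm and locus form counts. Together they hold 161 of the listed miRNAs and a mean of 54.6% of the counts, and miR-148a-3p is in none of them. In a mixture of cells, a larger share of cells of a type and more of a miRNA per cell cannot be told apart.

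Cartilage miRNAs took 10.5%, 14.3% and 12.8% of the counts, a mean of 12.6% ± 1.9. This was the largest mean of the 15 lists with library 2. Without it the cartilage list was at 11.7%, below the 13.0% of the skeletal muscle list. Of this, miR-140-3p was 91.6%. All 4 members, the 2 arms of miR-140 and of miR-455, were lowest in library 1 and highest in library 2 by CPM. Of the 94 miRNAs with a mean of at least 100 CPM, 17 were lowest in library 1 and 36 highest in library 2. With TMM factors, edgeR's scaling to a common set of miRNAs, all 4 remained lowest in library 1, but miR-140-3p was highest in library 3. miR-455-5p was at 1480, 3233 and 2422 CPM and miR-455-3p averaged 2144 CPM. miR-675, also in the list, had no entry under this name among the deposited mature miRNAs.

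Skeletal muscle miRNAs took 14.96%, 2.18% and 11.0% of the counts, a mean of 9.39% ± 6.55 with library 2 and 13.0% without it. After miR-1a-3p the most abundant were miR-499-5p, encoded within a slow myosin gene, at 4404, 738 and 4436 CPM, and miR-133a-3p, made from the same transcripts as miR-1a, at 4929, 766 and 3636 CPM. Of the 94 miRNAs with a mean of at least 100 CPM, 35 were lowest in library 2 by CPM and 52 with TMM factors. All 9 members of the muscle list with a mean of at least 10 CPM were lowest there with either scaling. Ratios between members varied less than their levels. The ratio of miR-133a-3p to miR-1a-3p counts was 0.0362, 0.0391 and 0.0367 in libraries 1 to 3. That of miR-206, which marks skeletal rather than heart muscle, to miR-1a-3p was 0.00866, 0.00993 and 0.0112. The ratio of miR-499-5p to miR-1a-3p was less even, at 0.0323, 0.0376 and 0.0448. These ratios were chosen after the values were seen. miR-208, a heart miRNA, had no entry under this name among the deposited mature miRNAs.

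The list of smooth muscle and fibroblast miRNAs had a steadier share, at 10.2%, 10.3% and 8.46%. It was led by miR-199-3p, miR-99a-5p at 15693 ± 4394 CPM and miR-199-5p at 10791 ± 561 CPM. miR-99a-5p varied within the list, at 12049, 20572 and 14459 CPM, while miR-199-5p stayed between 10263 and 11380 CPM. The smooth muscle miRNAs miR-143 and miR-145 had no entry under these names, so the list rests on the 12 of its 16 stems that were found.

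Epithelial miRNAs took 2.50%, 2.24% and 2.002% of the counts. The miR-200 family holds cells in the epithelial state by repressing ZEB factors. Its miR-200b-3p averaged 15275 ± 2328 CPM and its miR-200a-3p 4565 ± 265 CPM. miR-205a, a miRNA of basal and squamous cells in mammals, was at 1251, 1280 and 822 CPM. Of the list's 16 stems, 8 had an entry under their name. All 12 forms of these were detected in every library, as were 682 of all 994 miRNAs. Some of the 12 were rare, such as miR-429-5p with 10, 2 and 4 counts. The most even member by CPM was miR-200a-5p, at 406, 381 and 403 CPM. With TMM factors its CV was 10.5%, above the 9.40% of miR-200a-3p. The least even of those above 10 CPM was miR-203a, a miRNA of differentiating squamous epithelium, at 236, 322 and 122 CPM.

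Multiciliated cell miRNAs took 1.31%, 1.53% and 1.19%. miR-34b-5p was at 7146, 8909 and 6683 CPM and miR-34c-5p at 4081, 4747 and 3715 CPM. Both act with miR-449 in the formation of motile cilia in vertebrates. Their sequences share a run of 22 bases shifted by 1, so how reads were divided between them is uncertain. The ratio of miR-34c-5p to miR-34b-5p counts was 0.571, 0.533 and 0.556. miR-449a, which has the same seed as miR-34c-5p, behaved otherwise, at 699, 338 and 546 CPM. It was lowest in library 2, where both miR-34 forms were highest. miR-34b-3p, the other arm of miR-34b, averaged 803 ± 162 CPM.

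Endothelial miRNAs took 1.12%, 0.880% and 1.03% of the counts, of which miR-126-3p, the miRNA most restricted to endothelium, was 77.2%. It was at 8055, 6969 and 8365 CPM. miR-221-3p and miR-222a neighbour each other in the genome and are also made by dividing cells. They averaged 1092 ± 350 CPM and 830 ± 336 CPM. Both were highest in library 1, as were 48 of the 94 miRNAs with a mean of at least 100 CPM.

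Blood and immune cell miRNAs took 7.84%, 6.28% and 5.92%, and miR-21-5p, which many tissues make, was 67.4% of the list. miR-146c-5p at 10717 ± 2141 CPM and miR-146b-5p at 7659 ± 460 CPM followed; their family restrains signalling to NF-kB in mammals. The more cell-restricted members were far lower. miR-142-3p averaged 253 ± 109 CPM, miR-223, a myeloid miRNA, 69.9 ± 15.97 CPM, and miR-155, made by activated lymphocytes and macrophages, 324 ± 150 CPM.

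Erythroid miRNAs were at 0.0245%, 0.0439% and 0.0128% of the counts. Here miR-451, which is matured by Argonaute rather than Dicer, was at 221, 394 and 117 CPM, and miR-144-3p, from the same transcript in vertebrates, at 16.3, 37.7 and 8.86 CPM. Both were highest in library 2 and lowest in library 3. The remaining member, miR-144-5p, was highest in library 1 instead, at 8.24, 7.39 and 2.36 CPM. Of the 94 miRNAs with a mean of at least 100 CPM, 36 were highest in library 2 and 42 lowest in library 3. Without library 2 the mean share of the list was 0.0187%, against 0.0271% with it.

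The germ line and early embryo, liver and neuron lists stand for tissues that a trachea should hold little of. They were low, apart from miR-128-3p in the neuron list. Germ line and early embryo miRNAs had 7, 12 and 4 counts in all, and the gonad miRNA miR-202-5p had 2 counts in each library, within the 3 counts that a count of 0 allows. The liver miRNA miR-122-5p was at 17.5, 10.5 and 37.3 CPM, and the mean share of its list was 0.00224%, or 0.00147% without library 3. In the neuron list miR-128-3p supplied 97.2% of the share of 0.717% ± 0.035 and averaged 6968 ± 357 CPM, and this miRNA is also made outside the brain. miR-9-5p was next at 89.2 ± 15.95 CPM. miR-219a and miR-219b averaged 51.0 ± 7.2 CPM and 49.9 ± 5.2 CPM, and their levels are uncertain, as described below. The most brain-restricted member, miR-124a-3p, had 0, 2 and 0 counts. miR-124c-3p, which has a different seed, had 26, 37 and 24.

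Neuroendocrine and thyroid miRNAs took 0.270% ± 0.038. miR-375, a miRNA of endocrine and secretory epithelium, was even at 1070, 1264 and 1141 CPM. miR-7 was at 1363, 942 and 1390 CPM, and its relative miR-7b is described below. miR-17-92 cluster miRNAs, typical of dividing cells, took 0.912%, 0.723% and 0.606%, led by miR-92-3p at 6424 ± 1430 CPM, with miR-20a-5p at 482 and miR-17-5p at 162 CPM. In the miR-15/16 family, at 0.0769% ± 0.0111, miR-16c-5p averaged 458 ± 70 CPM, miR-16-5p 277 ± 40 CPM and miR-15a 13.3 ± 1.3 CPM.

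The let-7 family, which marks differentiated cells in general, took 10.9%, 10.5% and 8.31%, counting both arms. By CPM, 10 of its 12 members with a mean of at least 10 CPM were lowest in library 3, as were 42 of the 94 miRNAs of at least 100 CPM. This depended on the scaling: with TMM factors 5 of the 12 members and 19 of the 94 were lowest in library 3, and let-7i was highest there. The CV of let-7i was 5.16%.

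**Figure D4:**
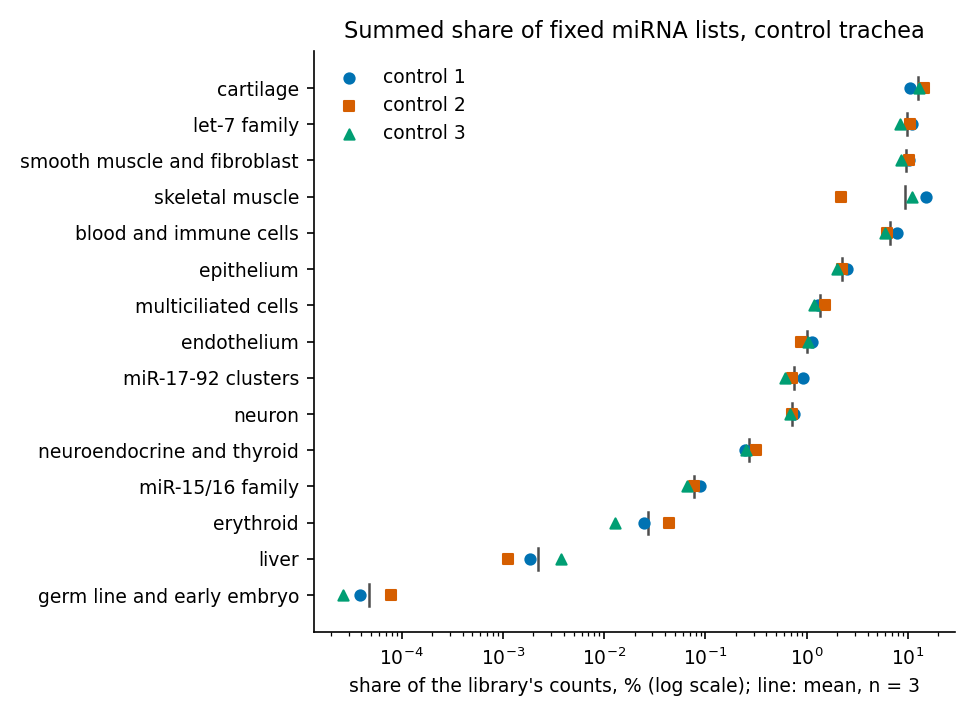
Summed share of the library's counts, in percent on a log axis, of 15 miRNA lists in each control library, with the mean as a line (n = 3). Cartilage, let-7, mesenchymal and skeletal muscle lists lie near 10%, control library 2 is low for skeletal muscle at 2.18%, and germ line and early embryo miRNAs are lowest.

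Levels within groups of neighbouring precursors ranged from equal to very different. In a RefSeq gene table (GRCg7b, used for names and for neighbours within 10 kb), 684 of 740 precursors were found, and 142 of these stood in 58 groups. In 24 groups the main forms all had a mean of at least 10 CPM. There the highest exceeded the lowest by a median of 6.28-fold, with a range of 1 to 1944. The value of 1 came from miR-101, where both precursors give the same mature miRNA. The groups also hold miR-458a with miR-458b, at 1.001-fold, and miR-219a with miR-219b, at 1.02-fold. The levels in both are uncertain, as described below. Some forms come from several precursors, so their level is not that of 1 locus, and miR-181a-5p and miR-181b-5p enter more than 1 group. The median and range are therefore those of names, not of loci. The epithelial group gave 15275 CPM of miR-200b-3p, 4565 CPM of miR-200a-3p and 502 CPM of miR-429-3p, a 30.4-fold range. miR-27b-3p, miR-23b-3p and miR-24-3p averaged 10942, 2285 and 1628 CPM. In contrast, miR-221-3p and miR-222a differed 1.32-fold and miR-34b-5p and miR-34c-5p 1.81-fold.

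The spread between the 3 libraries was much larger than counting error. Among the 167 miRNAs with a mean of at least 10 CPM the median CV was 21.6%, where counting alone would give a median of 1.87%. The median CV was 16.9% for the 17 miRNAs of at least 10000 CPM and 23.7% for the 73 between 10 and 100 CPM. The common biological coefficient of variation, edgeR's estimate of the spread beyond counting error over 307 miRNAs, was 39.3%, and 26.9% without control library 2. The median CV did not single out that library: it was 17.1% without library 1, 16.4% without library 2 and 20.8% without library 3.

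The most variable miRNAs of at least 100 CPM were in large part skeletal muscle miRNAs. 5 of the 8 highest CVs belonged to skeletal muscle miRNAs: miR-133c-3p, miR-1a-3p, miR-133a-3p, miR-1b-3p and miR-499-5p, at 66.6% to 70.2%. The other 3 were miR-7b, miR-3529, whose CV was 90.9% with library 2 and 22.8% without it, and miR-2954. Of the 94 miRNAs at this level, the only further member of the muscle list was miR-206, at 66.3%. miR-133c-3p and miR-1b-3p each differ at 1 position from miR-133a-3p and miR-1a-3p, so the 5 may not be separate signals. The 8 lowest CVs, from 3.39% to 6.38%, belonged to miR-200a-5p, miR-128-3p, let-7i, miR-199-5p, miR-30e-3p, miR-200a-3p, miR-146b-5p and miR-429-3p. By CPM the epithelial miR-200 group supplied 3 of them, of which 2 are arms of miR-200a. The group's remaining forms of at least 100 CPM, miR-200b-3p and miR-200b-5p, were less even, with CVs of 15.2% and 26.0%. Membership of the low end depended on the scaling. With TMM factors from edgeR, 2 of these 8, let-7i and miR-128-3p, remained among the 8 lowest, while 7 of the 8 highest remained. The CVs of miR-200a-5p, miR-200a-3p and miR-429-3p were then 10.5%, 9.40% and 9.36%.

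miR-7b, miR-7 and miR-2954 also set library 2 apart. The counts of miR-7b were 68, 14197 and 119, a 247-fold range in CPM. miR-7, which shares the first 18 bases and the seed with it, had 24638, 14394 and 21177 counts, and their sum was 1367, 1870 and 1397 CPM. The CV was 18.3% for the sum, 20.4% for miR-7 alone and 170% for miR-7b alone. Without library 2 it was 49.5% for miR-7b, at a mean of 5.79 CPM, and 1.36% for miR-7. miR-2954 was at 3536, 473 and 2686 CPM, low in the library where miR-7b was high, and its CV was 70.9% with library 2 and 19.3% without it. Its levels ranged 7.48-fold and were lowest in library 2, like those of miR-1a-3p, which ranged 6.94-fold. Since low miR-2954 and low muscle miRNAs both rest on library 2, the 2 patterns cannot be told apart here. As background, the gene of miR-7b lies on the W chromosome, which hens alone carry, and that of miR-2954 on the Z chromosome, where it is expressed more highly in male birds. The labels give no sex, and its part in these values was not tested.
miR-7: tGGAAGACtagtgattttgttg
miR-7b: tGGAAGACtagtgatttttgtt
miR-2954: cATCCCCAttccactcctagca

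**Figure D5:**
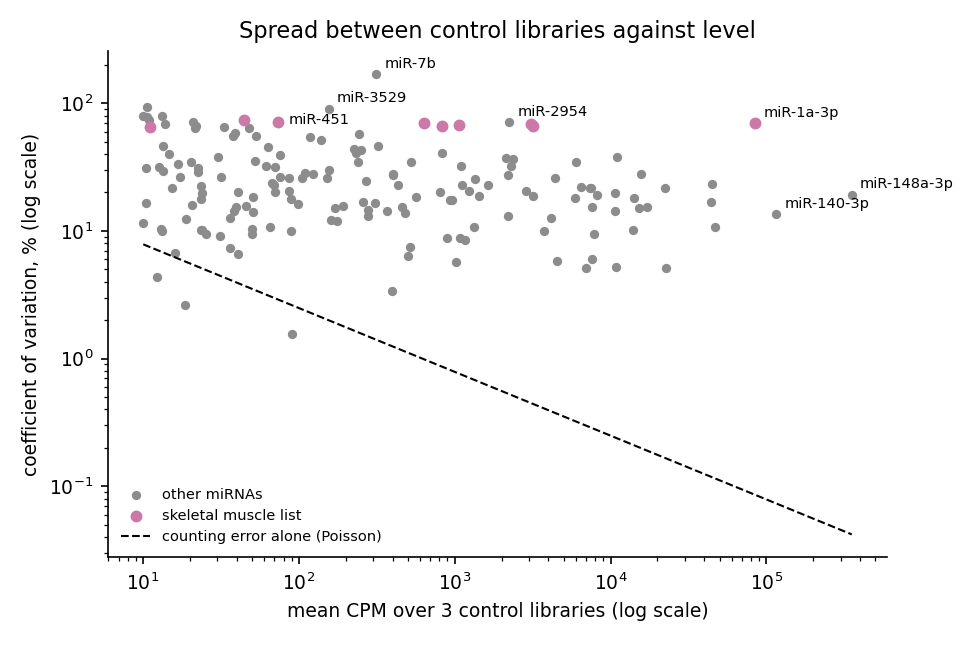
Coefficient of variation over the 3 control libraries against mean CPM, both on log axes, for 167 miRNAs with a mean of at least 10 CPM, with the skeletal muscle list coloured and the spread that counting error alone would give as a dashed line. Skeletal muscle miRNAs lie in a band near 70%, miR-7b is highest at 170%, and most miRNAs lie well above the dashed line.

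Some names in the table hold counts that cannot be assigned to 1 gene. let-7a-5p and let-7j-5p have the same mature sequence, with 3 and 1 listed precursors, and let-7a-5p held 75.2% of their joint counts in each library, where a division by precursors gives 75%. miR-204 and miR-211, identical too, were divided 68.3%, 63.9% and 64.5% to miR-204, where precursors give 66.7%. let-7k-3p and let-7a-3p, also identical, were divided 48.0%, 54.1% and 53.4% to let-7k-3p, where precursors give 50%. Over these 3 pairs and 3 libraries, the 95% exact interval held the division by precursors in 4 of 9 values. A level of one such name is part of a joint level.

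Near-equal counts were found in some miRNAs whose sequences are reverse complements. miR-458a-3p and miR-458b-5p, with 20 complementary bases (in capitals below), had 6053 and 6050, 5187 and 5145, and 8059 and 8086 counts. miR-219a and miR-219b had 817 and 823, 903 and 850, and 744 and 739. Of 8 pairs with a run of at least 18 complementary bases, 5 had at least 20 joint counts in every library. In 4 of these 5 the 95% exact interval of the division held the value given by the numbers of precursors in all 3 libraries. The exception was miR-124c-3p with miR-124a-5p, at 26 and 2, 37 and 0, and 24 and 1 counts. How the authors' counting treated strand and reads with several matches is not given in the sources used here, so the level of each member of these pairs is uncertain.
miR-458a-3p: ATAGCTCTTTGAATGGTACTgc
miR-458b-5p: AGTACCATTCAAAGAGCTATga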

How the data were processed

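Small RNA was sequenced from chicken trachea. Per the labels' protocols, total RNA was extracted with Trizol and small RNA was purified with a miRNeasy kit. The deposited table holds raw counts per mature miRNA with the mature sequence and precursor names, and the authors aligned reads with BWA, per the submitters' processing notes. The sources used here do not give its version, reference, mismatch setting, strand rule or treatment of reads with several matches. The 3 control columns were used. Gene counts of the mRNA libraries and the H2S columns were not used.

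Levels are counts per 1000000 counts of the library total (CPM), with mean and SD over 3 libraries. Capture of different sequences was not calibrated, so ranks and ratios between miRNAs are those of counts. A mature pair was measured from 20 joint counts in every library and called for an arm at 2-fold in every library. Spread beyond counting error was estimated with edgeR 4.0.16 (R 4.3.3) after TMM scaling and filterByExpr, with an intercept only. DESeq2 1.42.0 gave alternative size factors. Other values used Python 3.11.15 with SciPy 1.17.1. With 1 group described, no test between conditions was made.

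The members, the lists and the rule for naming miRNAs were chosen with earlier results of these data known. The rule took the 15 most abundant miRNAs, the 3 most abundant of each list, the 10 most abundant pairs with the 3 most extreme on each side and the 5 most balanced (from 100 joint counts), the 8 highest and 8 lowest CVs from 100 CPM, the 5 most abundant sets of identical sequences, the 5 leading seeds and miR-2954. Other members of the lists and the near-identical or reverse-complement pairs were named after their values were seen. Seeds were read from the deposited mature sequences.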

Additional observations from a re-analysis of the deposited data

How the results depend on the processing

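No paired analysis was possible because the 3 control libraries form 1 group and no comparison was tested. Without control library 1, 2 or 3, each of the 23 values examined stayed within 1 SD or within 1.5-fold. For the shares, which were held to 1 SD, this could not fail. Leaving out 1 of 3 libraries always moves a mean by less than 1 SD. Without library 2 the mean share of the skeletal muscle list went from 9.39% to 13.0%, and from rank 4 to rank 1 of the lists. The common biological coefficient of variation ranged from 26.9% without library 2 to 46.8% without library 3. The values without library 2 for single miRNAs and seeds, and the TMM counts for lists, were added after seeing the data. Requiring 10 counts or 1 CPM in every library left 315 or 276 detected miRNAs in place of 682. Without a filter on low levels the median CV was 58.9%, because rare miRNAs enter it. TMM, DESeq2 factors and leaving out the muscle list, which was added after seeing the data, gave 20.3%, 22.2% and 20.4%.

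With miR-148a-3p taken out of the total, every list's share became larger by construction. The shares were then 19.7% for cartilage, 15.3% for let-7, 14.98% for smooth muscle and fibroblast, 10.3% for blood and immune cells, 3.47% for epithelium, 2.10% for multiciliated cells, 1.56% for endothelium, 1.15% for the miR-17-92 clusters, 1.11% for neuron, 0.423% for neuroendocrine and thyroid, 0.119% for the miR-15/16 family and 7.57e-05% for germ line and early embryo. Skeletal muscle was then at 14.0%, erythroid at 0.0426% and liver at 0.00349%, each within 1 SD of its share of the full total. Arm counts ranged from 51 to 77 pairs for 5p and 35 to 66 for 3p over the count minimums of 100 and 5. At 4-fold they were 57 and 42, and with the same precursors for both arms, an alternative added after seeing the data, 61 and 51. With 3 libraries, the SDs are themselves imprecise, and levels under about 1 CPM rest on fewer than 20 counts.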

Other observations

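The arms of miR-7460 exchanged places between libraries. Its 5p arm had 39, 4 and 2 counts and its 3p arm 6, 30 and 30 counts in control libraries 1 to 3, the widest change of arm ratio among the 7 pairs whose sign differed between libraries. The pair was picked out after its values were seen, and its joint level was low.

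miR-133c-3p and miR-133a-3p differ at 1 position, and their ratio was 0.210, 0.2004 and 0.198 although their levels ranged 6.73-fold and 6.43-fold. miR-1b-3p and miR-1a-3p also differ at 1 position, with ratios of 0.0122, 0.0139 and 0.0128. Whether reads of the abundant form were counted under the rarer name was not tested.

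miR-3529, whose precursor overlaps that of miR-7-2 in the RefSeq gene table, had 1559, 4866 and 949 counts, a CV of 90.9%, and was highest in library 2 like miR-7b. Among the 94 miRNAs of at least 100 CPM, library 1 was highest for 48, library 2 for 36 and library 3 for 10 with CPM, against 45, 25 and 24 with TMM scaling, so which library is highest often depends on the scaling.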
